A study of Glycine max with 2 samples.

Results

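The soybean genes studied here are named for late embryogenesis abundant (LEA) proteins or for seed maturation proteins. They were the genes whose symbol or an older name begins with LEA, is PM followed by a number, or is ERD15, and which had soybean probe sets assigned to 1 gene. The rule found 30 genes with 39 probe sets, out of 6031 genes with 8677 single-gene probe sets. MAT9 and DEHYDRIN, which share a probe set, were left out. The dehydrin gene MAT1 was kept through its older name LEA-D11.

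LEA proteins are small and mostly very hydrophilic, and they are made in large amounts when seeds dry at the end of their development. Many are also made in leaves and roots that lose water, and abscisic acid is a known inducer of their genes. They are grouped by sequence. Group 1 holds the Em proteins, group 2 the dehydrins, and groups 3 and 4 proteins that are largely unfolded in water and form helices on drying. The PM names come from transcripts of maturing soybean seed. Not all PM genes encode LEA proteins, and some encode chaperones or enzymes.

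The seedlings were Glycine max, cultivar Williams 82, 14 days old, grown in vermiculite at 25 °C with 16 h of light. The salinity group received 150 mM NaCl and the mock group water alone. RNA taken at 1, 3, 6, 12 and 24 h was combined into 1 pool per group, and the design text also lists a time of 0 h. Each pool was hybridised to 1 Affymetrix Soybean Genome Array. There are therefore no replicates and no test, and every difference describes these arrays alone. The labels give neither the organs taken nor the number of plants. In pooled tissue, fewer cells of a type and less RNA per cell cannot be told apart.

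Values are log2 MAS5 signals, the array software's summary of a probe set. The background bound was the 95th percentile of probe sets for other organisms on the same array, which was 4.88 (salinity) and 4.94 (mock) in log2. Signals below it were raised to it before the log2 ratio of salinity to mock was taken, so a ratio with the mock signal below the bound is a lower limit. A gene was represented by its probe set with the highest mean signal. For scale, the probe sets of 1 gene differed with an SD, divided by the square root of 2, of 0.295 in log2 ratio over 1618 genes. That spread holds no difference between plants or pools. Probe sets bind with different strength, so signals are compared between arrays and not between genes. The median log2 ratio of all measured genes was -0.0033. The soybean ribosomal RNA probe sets were brighter on the salinity array in 32 of 35 cases, with a median log2 ratio of 0.85, and the part of this in the results below was not tested.

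Most LEA and seed maturation genes were higher in the salt-treated pool, several by a wide margin. Of the 30 genes, 20 exceeded the bound in both pools, 9 with salt only, none with mock treatment only, and PM24 in neither. Among the 20 genes above the bound on both arrays, 12 were at least 2-fold higher, against 4.71% of all 5769 such genes. None of the 20 was at least 2-fold lower, against 5.56% of all such genes. In the same 20 genes the median log2 ratio was 1.90, and 18 had a ratio above 0, against 49.5% of all. Counting also the 9 genes that exceeded it with salt only, 17 of 29 were at least 2-fold higher, against 5.02% of all 5892 measured genes, and none was 2-fold lower, against 5.67%. These 9 passed the bound through their salinity signal alone, so their ratios could not fall below 0 by more than the small gap between the bounds. The median over the 29 was 1.69.

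**Figure D1:**
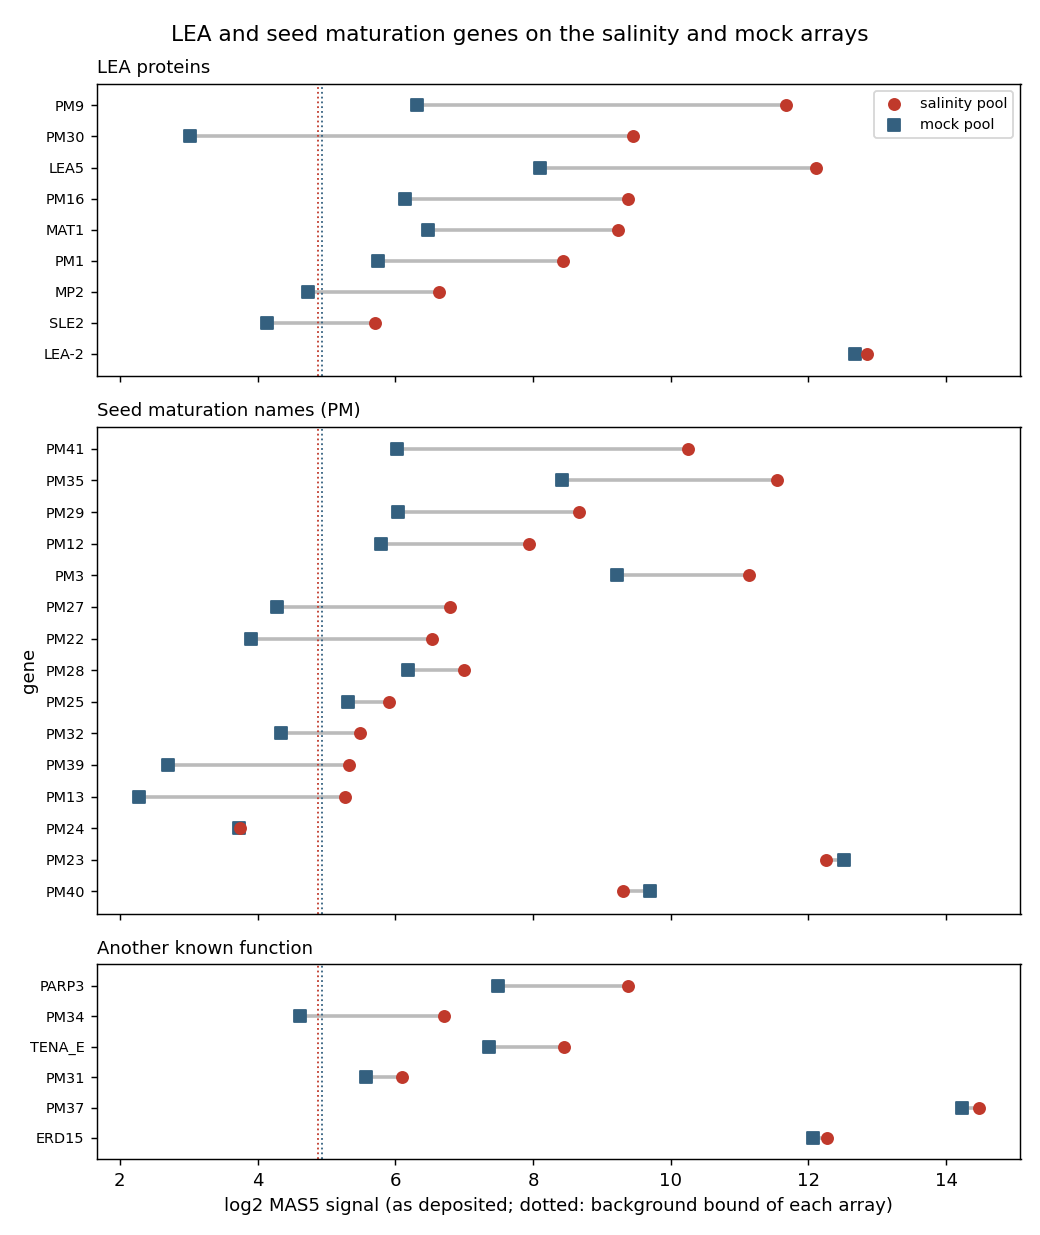
Log2 signal as deposited (horizontal axis) of the 30 LEA and seed maturation genes on the salinity array (red circles) and the mock array (blue squares), 1 array each, sorted by log2 ratio within LEA proteins, genes known by a PM name only, and genes with another known function. Dotted lines are the background bounds of 4.88 (salinity) and 4.94 (mock). The salinity signal lies far to the right of the mock signal for PM9, PM30, LEA5 and PM41, and next to it for LEA-2, PM37 and ERD15.

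The genes of known LEA groups were described first. PM9 encodes a group 4 LEA protein. It had a log2 signal of 11.67 in the salinity pool, against 6.32 in the mock pool, 40.8-fold higher. Its ratio was rank 2 of the 5769 genes above the bound on both arrays. PM1, also of group 4, had 8.43 in the salinity pool and 5.75 in the mock pool, 6.43-fold higher. Both group 4 genes thus moved the same way, PM9 by the larger factor, and both were above the bound on both arrays.

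PM30 and MP2, an older name of which is PM2, encode group 3 LEA proteins. Both exceeded the bound in the salinity pool and lay below it in the mock pool. PM30 had a log2 signal of 9.45 (salinity) and 3.02 (mock, below the bound), and was at least 22.7-fold higher. MP2 had 6.63 (salinity) and 4.73 (mock, below the bound), at least 3.22-fold higher. The dehydrin gene MAT1, of group 2, had 9.24 in the salinity pool and 6.48 in the mock pool, 6.76-fold higher. The group 1 gene SLE2, of the Em type, was close to background, at 5.71 (salinity) and 4.14 (mock, below the bound). Its log2 ratio was at least 0.77, a lower limit that does not settle whether it was 2-fold higher. It was 1.15 with the bound at the 90th percentile, 0.0048 with the bound at the 99th, and 1.02 for log2(signal + 16) without a floor.

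LEA5, PM16 and LEA-2 also carry LEA names or encode LEA-type proteins. LEA5 had a log2 signal of 12.11 with salt, compared with 8.11 in the mock pool, which made it 16.0-fold higher, rank 8 of 5769. PM16 stood at 9.38 in the salinity pool and 6.14 in the mock pool, 9.41-fold higher. LEA-2 differed little, with 12.85 (salinity) and 12.67 (mock), a log2 ratio of 0.18. Of the 9 LEA genes, 7 were therefore called at least 2-fold higher, against 5.02% of all measured genes. PM30 and MP2 among them passed the bound through their salinity signal alone. LEA-2 was not, and SLE2 gave only a limit below the line. Among the 6 above the bound on both arrays, 5 were at least 2-fold higher, against the 4.71% of all such genes, with a median log2 ratio of 2.996.

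A further 15 genes are known here by a PM name only, and whether any of them encode LEA proteins was not checked. PM41 had a log2 signal of 10.25 in the salinity pool and 6.02 in the mock pool, 18.7-fold higher and rank 6 of 5769. PM35 had 11.55 (salinity) and 8.42 (mock), 8.70-fold higher. PM29 had 8.67 (salinity) and 6.04 (mock), 6.21-fold higher. These 3 genes each had 1 probe set, without a suffix for possible cross-hybridisation, and a mock signal above the bound. PM12 followed with 7.94 (salinity) and 5.79 (mock), 4.44-fold higher, and PM3 with 11.13 (salinity) and 9.22 (mock), 3.76-fold higher. PM3 was thus higher with salt at a mock signal far above the bound, and PM12 at one near it.

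PM27 and PM22 were below the bound in the mock pool. PM27 had 6.80 (salinity) and 4.28 (mock, below the bound), at least 3.62-fold higher. PM22 had 6.53 (salinity) and 3.91 (mock, below the bound), at least 3.00-fold higher. PM28 lay just short of the 2-fold line, with 6.998 (salinity) and 6.18 (mock), a log2 ratio of 0.81. PM25 had a log2 ratio of 0.60, at signals of 5.92 (salinity) and 5.32 (mock). PM32, PM39 and PM13 passed the bound narrowly and on the salinity array alone, with salinity signals of 5.49, 5.33 and 5.27 and lower limits on the log2 ratio of 0.55, 0.38 and 0.33. PM24 was below the bound on both arrays, at 3.75 (salinity) and 3.73 (mock), and gives no ratio.

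PM23 and PM40 were the only genes of the 29 with a ratio below 0. PM23 had 12.25 (salinity) and 12.51 (mock), a log2 ratio of -0.26. PM40 had 9.30 (salinity) and 9.70 (mock), a log2 ratio of -0.40. The first value is within the spread of 0.295 between probe sets of a gene and the second is beyond it, and neither reaches 2-fold. Among the 9 genes with a PM name only that were above the bound on both arrays, 5 were at least 2-fold higher, against 4.71% of all such genes, with a median log2 ratio of 1.91. The other 5 measured ones exceeded it on the salinity array alone, so their ratios could hardly be negative. Of these, 2 had lower limits past 2-fold.

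The remaining 6 genes have another known function. PARP3, an older name of which is PM38, encodes a poly(ADP-ribose) polymerase, an enzyme family known for its part in DNA repair. It had 9.39 in the salinity pool and 7.49 in the mock pool, 3.72-fold higher. PM34 encodes a protein of the short-chain dehydrogenase family, and had 6.71 (salinity) and 4.62 (mock, below the bound), at least 3.40-fold higher. TENA_E, formerly PM36, belongs to the TenA family of thiamine metabolism, and had 8.46 (salinity) and 7.36 (mock), 2.13-fold higher. These 3 passed the 2-fold line, TENA_E narrowly.

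The other 3 did not. PM31, for a small heat shock protein, had a log2 ratio of 0.53 at signals of 6.10 (salinity) and 5.58 (mock), near background. PM37, for a chaperone of the DnaJ type, had 14.47 (salinity) and 14.23 (mock), a log2 ratio of 0.24. ERD15, named for its early response to dehydration in Arabidopsis, had 12.26 (salinity) and 12.07 (mock), a log2 ratio of 0.19. PM37 and ERD15 were thus strongly detected in both pools and differed by less than the spread between probe sets of a gene. Among the 5 of these 6 genes above the bound on both arrays, 2 were at least 2-fold higher, against 4.71% of all such genes. The median log2 ratio of the 5 was 0.53. With no replicates, its difference from the median of the LEA genes was not tested.

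The genes were also set beside all genes with a like signal in the mock pool. In bands of mock signal that were chosen after the values were seen, 7 of the 10 genes with a log2 signal above the bound and under 7 were at least 2-fold higher, against 14% of all 414 genes in that band. From 7 to 10 the count was 5 of 6, namely LEA5, PM35, PM3, PARP3 and TENA_E, against 6.49% of 2143 genes. At 10 or more it was 0 of 4, the genes PM37, ERD15, LEA-2 and PM23, against 2.3% of 3255 genes. Below the bound it was 5 of 9, against 30% of 80 genes, where a ratio can hardly be negative. Among all genes the share was larger at lower mock signals. With at most 10 LEA and seed maturation genes in a band, their counts are too small to show whether they follow that order. The 4 genes in the top band spanned log2 ratios from -0.26 to 0.24.

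**Figure D2:**
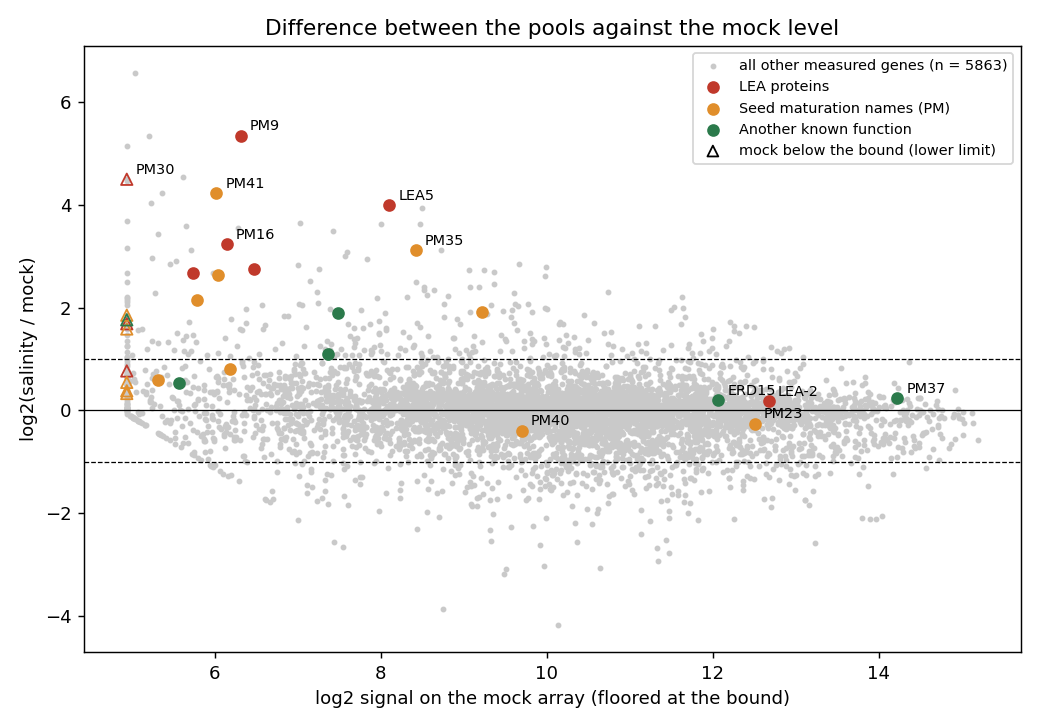
Log2 ratio of salinity to mock (vertical axis) against the log2 signal on the mock array, raised to the bound where below it (horizontal axis). Grey points are the 5863 other measured genes, coloured symbols the 29 measured LEA and seed maturation genes by class, and open triangles those whose mock signal was below the bound, which are lower limits. Dashed lines mark 2-fold. LEA and PM genes reach log2 ratios of 3 and more at mock signals under 9, and the 4 genes at the right lie near 0.

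At larger differences these genes made up a visible part of the array's highest values. Of all 5892 measured genes, 27 (0.458%) were at least 8-fold higher, and 6 of these were PM9, PM30, PM41, LEA5, PM16 and PM35. PM30 passed the bound through its salinity signal alone, and its 3 probe sets gave log2 ratios of 4.50, 0.47 and 5.12. PM16 reached 8-fold by its marked set only, and its unmarked set was 3.67-fold higher. Among genes above the bound on both arrays, 3 of the 10 highest ratios, 5 of the 20 highest and 8 of the 50 highest belonged to the LEA and seed maturation genes. PM16 is counted there, at rank 17, by its marked set.

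Probe sets of the same gene are the only repeat measurement on these arrays, and they share each array's RNA. Of the 8 genes with more than 1 probe set, 7 had at least 2 sets above the bound on an array, and in all 7 the sets had the same sign. In PM12 and PM30 some sets exceeded the bound on the salinity array alone, so their ratios could hardly be negative. For PM3 the ratios were 1.91 and 2.01, from probe sets of different transcript clusters. For PM37 they were 0.24 and 0.29, and for ERD15 0.19 and 0.12, also from different clusters. For PM23 they were -0.26 and -0.09, from sets of the same cluster, which are not independent. These 4 genes agreed to within 0.2 between their sets, but only PM3 among them was called 2-fold higher.

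The sets of the other 3 genes, all called at least 2-fold higher, were more than 1 log2 unit apart. PM16 gave 3.23 by a set with a suffix for possible cross-hybridisation, and 1.88 by its unmarked set, at 7.27 (salinity) and 5.39 (mock). Both sets placed PM16 at least 2-fold higher, and the fold was 9.41 or 3.67. They belong to the same transcript cluster and are therefore not independent. PM12 gave 2.15 by its marked set, which is of the same transcript cluster as its unmarked set. Its unmarked set had 8.58 (salinity) and 4.62 (mock, below the bound), at least 12.5-fold higher, so here the marked set gave the smaller ratio.

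PM30 had 3 probe sets. The marked set that represents the gene and an unmarked set belong to the same transcript cluster and are therefore not independent. The unmarked set of that cluster had 10.07 (salinity) and 1.03 (mock, below the bound), at least 34.9-fold higher, so the high value of PM30 does not rest on a marked set alone. The third set, from another cluster and without a mark, had 5.89 (salinity) and 5.42 (mock), a log2 ratio of 0.47. The cluster of the first sets therefore showed a wide difference and the other cluster a small one near background, and which of them follows the PM30 transcript was not tested.

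**Figure D3:**
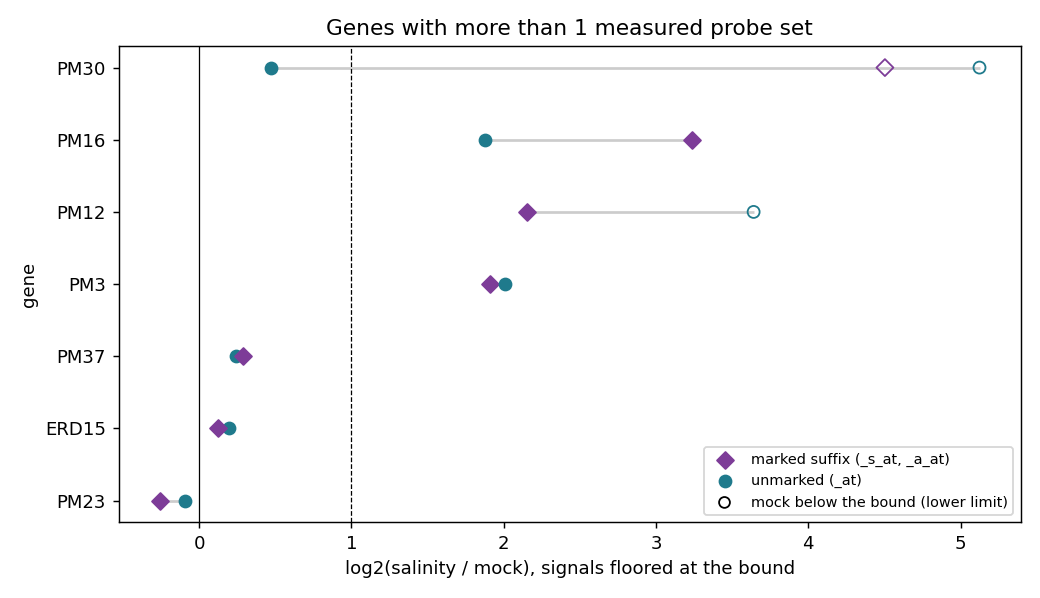
Log2 ratio of salinity to mock (horizontal axis) of each measured probe set of the 7 genes with more than 1 such set. Circles are sets without a suffix for cross-hybridisation, diamonds sets with one, and open symbols sets whose mock signal was below the bound (lower limits). The dashed line marks 2-fold. PM3, PM37, ERD15 and PM23 have sets that nearly coincide, and PM30 spans 0.47 to 5.12.

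Genes related by name were few. BZIP1, formerly AREB1, encodes a factor named for binding the abscisic acid response element, which many LEA promoters carry. It had 9.61 (salinity) and 8.48 (mock), a log2 ratio of 1.12, and its other probe set gave 1.86. LEC1-A, a regulator of embryo development, was below the bound on both arrays. BZIP1 was thus the only measured gene for seed transcription and abscisic acid, and 1 gene gives no share to compare. By dehydration-like names, none of 3 was 2-fold higher, against 5.02% of all measured genes. COR2 (log2 ratio -1.04) was 2-fold lower, against 5.67% of all measured genes, with COR1 at 0.53 and RAB2, for a small GTPase, at -0.10. These 3 genes are too few to compare with those shares. No oleosin gene was found by symbol among the single-gene probe sets.

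Seed storage protein genes, markers of maturing seed, stayed near background. Of 9 genes for glycinins, conglycinins and basic 7S globulins, 2 exceeded the bound in the salinity pool and 1 in the mock pool. Their summed unlogged signal was 202 (salinity) and 143 (mock), and the highest signal was that of BG7S-1, at 6.22 (salinity) and 5.66 (mock). GY2 reached 5.05 (salinity) and 4.13 (mock, below the bound), and the other glycinin genes and the conglycinin genes were below the bound on both arrays. The wider list of 17 seed names had 7 genes over the bound in the salinity pool and 4 in the mock pool, with a median log2 ratio of 0.11. It holds genes that are not storage proteins. SBPRP, for a proline-rich protein, was 4.32-fold lower. The summed unlogged signal of the list, 10412 (salinity) and 23897 (mock), came mostly from SBPRP and the trypsin inhibitor family genes KTI-2 and KTI-3, at log2 ratios of -0.19 and -0.36. SBP65, named for a biotin-containing seed protein, had 5.99 (salinity) and 3.75 (mock, below the bound), at least 2.07-fold higher.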

How the data were processed

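RNA of salt-treated and mock-treated soybean seedlings was measured on 1 array per group, taken from the labels. The deposited values are log2 signals that the authors made with MAS5, per the submitters' processing notes, and any later step is not given in the sources used here. The number of arrays limits the precision. The means of the unlogged signals, trimmed by 2% at each end, were 498.8 (salinity) and 498.5 (mock), so values were used as deposited.

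Genes were named from the platform's annotation and, by gene identifier, RefSeq's gene table (Glycine_max_v4.0, names only, 6010 of 6031 genes found). The 370 soybean probe sets with several genes were left unnamed. The LEA groups, the other functions and the sorting into LEA, PM-only and other genes came from general knowledge, not from that annotation. Counts and medians of these classes depend on that sorting. With 1 array per group, a gene was called at 2-fold. Every LEA and seed maturation gene was named, and full levels are given by rule for 2-fold, near 2-fold and discordant genes and for the strongest on the mock array. The members, lists and rules were chosen with earlier results of these data known. Planned comparisons of protein and promoter sequences were not made, because no sequences were used here. Calculations used Python 3.11.15 with numpy 2.4.6, pandas 2.3.3 and statsmodels 0.14.6. The steps were tested on simulated data with changes only in genes well above the bound, so lower limits were not tested. Other scalings, bounds, probe set choices and member lists were tried as alternatives.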

Additional observations from a re-analysis of the deposited data

How the results depend on the processing

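The median log2 ratio of the 29 genes, 1.69, ranged from 1.09 to 1.90 over 13 alternatives. It moved by more than the spread between probe sets of a gene (0.295) under 1 of them, a bound at the 99th percentile, where it was 1.09 over the 26 genes still measured and the lower limits shrank by construction. The number of genes at least 2-fold higher, 17, ranged from 12 (genes above the bound on both arrays) to 20 (log2(signal + 16) with no floor), and no gene was 2-fold lower under any of the 13. No 2-fold value of a gene changed sign. Of 356 values of single genes under the alternatives, 329 stayed within 0.295 of the reported one. Alternatives that only left genes out could not move a value, and gave 20, 24, 26 and 28 of the 329. Genes with 1 probe set also could not move under the choices of probe set. The other 27 values belonged to 14 genes. Among these, PM30 was at 0.47 without probe sets marked for cross-hybridisation and at 5.12 when the set was chosen after the floor, and MP2 (0.92) and PM22 (0.82) fell short of 2-fold with the 99th percentile. SLE2 (1.02), PM13 (1.39) and PM39 (1.32) passed 2-fold for log2(signal + 16), and SLE2 (1.15) also with the 90th percentile. SLE2 was at 0.0048 with the 99th percentile, where PM13 and PM39 were no longer measured. Median centring, quantile normalization and loess moved no gene by over 0.295. The choice after the floor and the lists without MAT1, or without ERD15, PARP3 and TENA_E, were added after seeing the data. No paired analysis was possible because each group has 1 array. Signals near the bound limit SLE2, PM13, PM25, PM31, PM32 and PM39. Among genes called higher, PM30, PM27, PM34, MP2 and PM22 had mock signals below the bound, so their lower limits depend on it. With the 99th percentile PM27 (1.09) and PM34 (1.0007) only just stayed 2-fold higher.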
